A study of Rattus norvegicus with 6 samples.

Results

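The genes described here encode the machinery of oxidative phosphorylation and the carriers and pores that feed it: 53 nuclear genes for subunits of complexes I to V, cytochrome c, the ATP synthase inhibitor, the phosphate and adenine nucleotide carriers and the outer membrane porins. The rule that picks them is a list of gene symbols grouped by function. It uses no measured value, although the list was drawn up with earlier results of these data known. The arrays held 58 probe sets that name one of these genes alone and 5 that name a member together with a related locus, in all 63 of 8740 probe sets for genes. Of the 53 genes, 34 had a probe set of their own (among 4736 genes on the array), 4 (Cycs, Cox7a2, Atp5mc1 and Atp5mc2) were covered by shared probe sets only, and 15 had no probe set named for them here. Those 15 were Ndufa10, Ndufv1, Sdhb, Sdhc, Sdhd, Uqcrc1, Uqcrb, Uqcrq, Cox7c, Atp5mc3, Atp5me, Atp5mf, Atp5mg, Vdac2 and Vdac3.

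Total RNA from whole adrenal glands of 2 inbred rat strains was hybridised to 1-colour oligonucleotide arrays of the rat genome U34 design, with 3 arrays for the Spontaneously Hypertensive Rat (SHR) and 3 for the Wistar-Kyoto rat (WKY), the strain usually kept as its normotensive control. The labels name no transgene or treatment for either strain, and the sources used here state no age, sex or number of animals behind an array. The labels do not say that the replicates came from separate animals, so the p-values below measure only the spread between these arrays. Each value is a probe set's intensity, one number per probe set and array as the authors deposited it, and the number of arrays limits its precision.

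In the inner mitochondrial membrane, complexes I and II pass electrons from NADH and succinate to ubiquinone, complex III passes them to cytochrome c, and complex IV passes them to oxygen, while the proton gradient built along the way drives ATP synthesis by complex V. The adenine nucleotide translocases exchange matrix ATP for cytosolic ADP, the phosphate carrier imports phosphate, and porins let these metabolites cross the outer membrane. Adrenocortical cells are rich in mitochondria because the first and several later steps of steroid synthesis take place inside them.

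Many nuclear genes of this pathway carry binding sites for nuclear respiratory factor 1 (NRF-1) near their start. The core of that motif, CGCANGCG, was searched on both strands in the 250 bases before the start in the RefSeq promoter sequences (build GRCr8), which held 47 of the 53 genes. It was present in 15 of these 47 promoters (31.9%), in 1904 of 21851 promoters of protein-coding genes (8.71%) and in 2211 of 33469 promoters of all genes (6.61%). Among the 34 members with both a promoter in that table and a probe set of any kind, 11 (32.4%) held it. The shorter palindrome TGCGCA, which can overlap the core, was present in 12 of 47 (25.5%) against 7.58% of protein-coding promoters. Members with the core were Ndufa5, Ndufs6, Ndufv3, Sdha, Sdhd, Uqcrc1, Cycs, Cox7a2, Atp5f1d, Atp5pf, Atp5po, Atp5mc2, Atp5me, Atp5mg and Slc25a3, so every complex and the phosphate carrier had at least one. The 100 bases before the start are shown for 4 genes whose values are described below, 3 with the core and 1 without it, and capitals mark the core.
Sdha, chr1:30764453-30764552, plus strand: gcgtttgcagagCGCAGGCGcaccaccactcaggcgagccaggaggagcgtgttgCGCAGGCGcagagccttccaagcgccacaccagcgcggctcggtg
Ndufa5, chr4:53971236-53971335, minus strand: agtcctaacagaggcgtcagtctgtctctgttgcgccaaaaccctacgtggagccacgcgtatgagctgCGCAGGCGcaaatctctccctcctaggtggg
Atp5po, chr11:44657484-44657583, minus strand: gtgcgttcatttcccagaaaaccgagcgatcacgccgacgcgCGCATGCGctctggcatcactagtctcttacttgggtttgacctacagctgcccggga
Atp5if1, chr5:150026678-150026777, minus strand: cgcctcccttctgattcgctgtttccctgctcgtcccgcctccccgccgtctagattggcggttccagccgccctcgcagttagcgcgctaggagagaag
The Sdha promoter held the core at 2 places, 88 and 45 bases before the start, the Ndufa5 promoter held it 31 bases before and the Atp5po promoter 58 bases before. Of these genes, Sdha and Atp5po had higher means in SHR, and Ndufa5 and Atp5if1 lower ones. A match shows only that these letters are present in the window.

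All 6 arrays had the same trimmed mean, and their median intensities lay between 798 and 900. The ratio of the 3′ to the 5′ probe set of hexokinase, a control for RNA integrity, was 4.21 on SHR 2 and between 1.96 and 2.54 on the other 5 arrays, whereas the same ratio for GAPDH lay between 0.90 and 1.14 on all 6. The settings files place the hybridizations in 2 sessions, SHR 1 with the 3 WKY arrays and then SHR 2 with SHR 3, so only the first session holds both strains. The steroidogenic genes Star and Cyp11a1 and the catecholamine enzyme gene Th were bright in both strains, as markers of cortex and medulla. Cyp11a1 averaged 84806 ± 11467 in SHR and 89229 ± 11858 in WKY (SD, n = 3 each).

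None of the 55 tested member probe sets passed the test in either direction, against 102 of 5244 tested probe sets on the whole array (1.95%), of which 56 were higher (1.07%) and 46 lower (0.877%) in SHR. The test was limma's moderated test on log2(intensity + 181.5), with Benjamini-Hochberg adjustment over all tested probe sets and a threshold of 0.05. The smallest adjusted p among the members was 0.132, for a probe set of Atp5if1. At an unadjusted p under 0.05 there were 5 members (9.09%), all lower in SHR, where 728 of all tested probe sets (13.9%) reached that level, 373 of them lower (7.11%) and 355 higher (6.77%). That count was not stable: it was 0 with the hybridization session as a covariate, 1 without SHR 2, 2 without SHR 1 and 3 without WKY 3. It was 3 lower with 2 higher without WKY 1, and 4 lower with 2 higher without WKY 2. It stayed at 5, all lower, with other pseudocounts, a stricter filter, a robust variance model, a module block or without SHR 3. The other scalings, no filter, no intensity trend and a replicate block gave 4 to 6 lower and 0 or 1 higher. The log2 difference between SHR and WKY was negative for 31 members and positive for 24, with a median of -0.04 against -0.0069 over all tested probe sets. In whole glands, fewer cells of a type and less RNA per cell cannot be told apart.

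**Figure D1:**
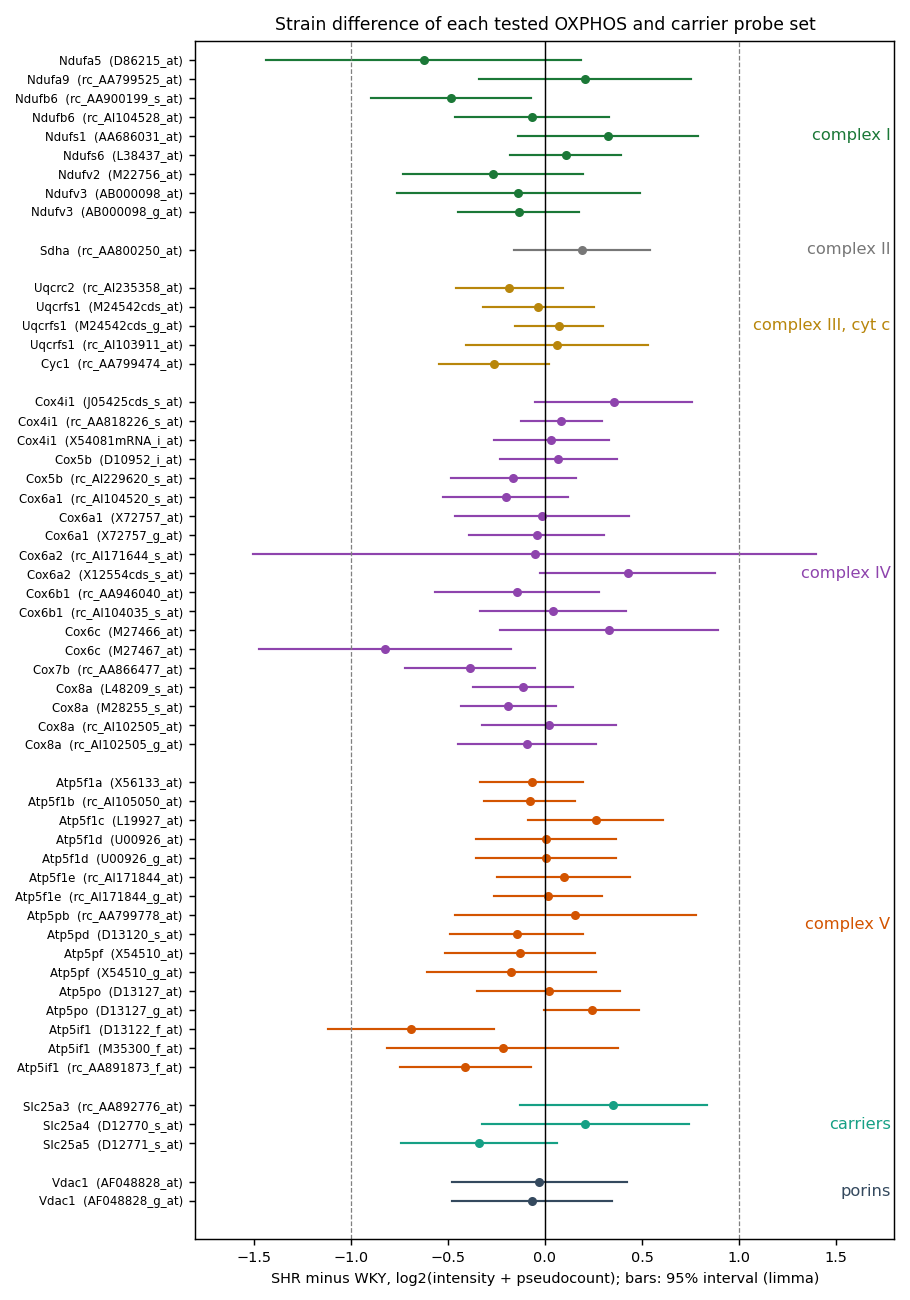
Log2 difference in intensity between SHR and WKY (x axis, SHR minus WKY on the log2(intensity + 181.5) scale) for each of the 55 tested member probe sets, grouped by complex or carrier class, with bars for the 95% interval from limma (3 arrays a strain). The points lie between -0.82 and 0.43, and no probe set passed the adjusted threshold.

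The differences were small as well as uncalled. The members' log2 differences had a median size of 0.14, against 0.22 over all tested probe sets and 0.17 over the 981 tested probe sets in the middle of the members' own brightness range. They were smaller than 0.5 (1.41-fold) for 52 of 55 members (94.5%), for 81.9% of all tested probe sets and for 85.5% of the 981. The 95% interval of the difference lay wholly within 2-fold either way for 51 of 55 members (92.7%), against 3818 of 5244 (72.8%), and wholly within 1.41-fold for 28 of 55 (50.9%), against 17.0%. The members' probe sets were bright, with a median percentile of 91.8 among tested probe sets, and bright probe sets had narrower intervals here. The median half-width of the interval was 0.36 for the members, 0.37 for the 981 of similar brightness and 0.51 over all tested probe sets. The intervals that reached beyond 2-fold belonged to one probe set each of Atp5if1, Ndufa5, Cox6c and Cox6a2, so their data leave room for a difference of that size. The arrays of the strains did not overlap for 11 members (20.0%), 9 with every SHR array lower and 2 with every SHR array higher. Among all tested probe sets 20.7% did not overlap, 10.5% with every SHR array lower and 10.2% with every SHR array higher. Of the 981, 24.0% did not overlap and 18.3% had an unadjusted limma p under 0.05.

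**Figure D2:**
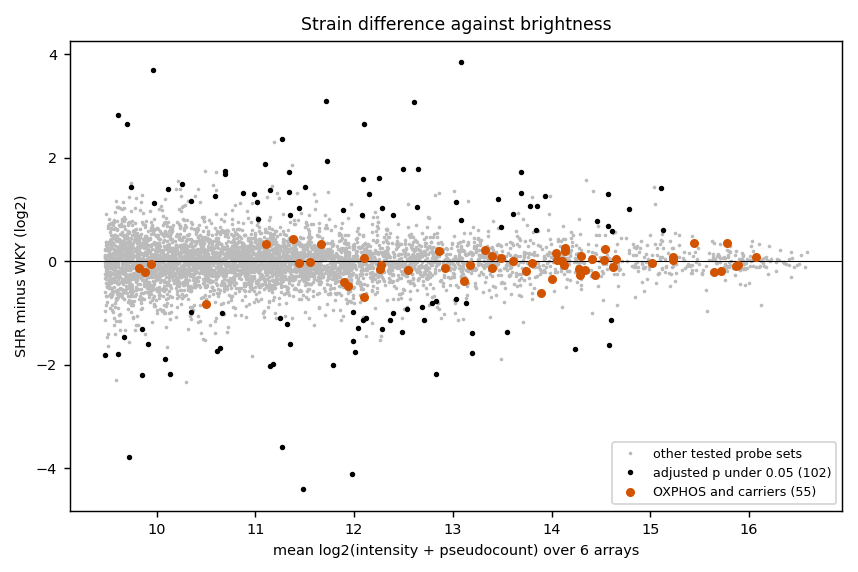
Log2 difference between SHR and WKY (y axis) against mean log2 intensity (x axis) for all 5244 tested probe sets, with the 55 members in orange, the 102 called probe sets in black and the rest in grey. The members sit toward the bright side of the plot, and 52 of 55 lie within 0.5 of no difference.

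Complex I, the NADH dehydrogenase, was represented by 9 tested member probe sets, 6 with a lower and 3 with a higher mean in SHR. Other complex I subunits on the array, such as Ndufb8, are outside the member list and are counted with the other pathway genes. The 9 had a median log2 difference of -0.14 and a smallest limma adjusted p of 0.272. That smallest value was for Ndufb6, an accessory subunit of the membrane arm. Probe set rc_AA900199_s_at read 3031, 2819 and 3634 on the SHR arrays and 4994, 3671 and 4868 on the WKY arrays. Every SHR array was below every WKY array, although SHR 3 and WKY 2 were nearly level. The means were 3161 ± 423 and 4511 ± 730 (SD, n = 3 each), a log2 difference of -0.48 ± 0.18 (SE). A second Ndufb6 probe set, rc_AI104528_at, gave -0.07 (limma adjusted p = 0.901), so the gene's 2 probe sets shared a sign but not a size.

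Ndufa5, an accessory subunit of the peripheral arm, read 8680, 10500 and 19233 in SHR and 29421, 13772 and 16076 in WKY. SHR 3 was above 2 of the WKY arrays, and the groups overlapped. Its log2 difference of -0.62 ± 0.35 had an interval from -1.43 to 0.19 (limma adjusted p = 0.473) and was -1.09 within the first session, which has 1 SHR array. Ndufv2, a subunit of the electron input module, read 17785, 19034 and 23966 against 18013, 27287 and 28847. WKY 1 lay among the SHR arrays, and the log2 difference was -0.27 ± 0.20 (limma adjusted p = 0.609). Ndufs1, the large iron-sulphur subunit, had a higher mean in SHR, with 2038, 2217 and 2647 against 1399, 1946 and 2096. SHR 1 was below WKY 3, and the log2 difference was 0.33 ± 0.20 (limma adjusted p = 0.518). The remaining tested probe sets, of Ndufa9, Ndufs6 and Ndufv3, lay between -0.14 and 0.21.

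Complex II was measured through Sdha alone, the flavoprotein that oxidises succinate. It read 19710, 21536 and 16385 in SHR and 19485, 15022 and 15829 in WKY. WKY 1 exceeded SHR 3, and the log2 difference was 0.19 ± 0.15, with an interval from -0.16 to 0.54 (limma adjusted p = 0.624).

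Complex III and cytochrome c gave 5 tested probe sets with a member's name alone, 3 lower and 2 higher in SHR, with a median of -0.03. Cyc1, the haem-bearing subunit that hands electrons to cytochrome c, read 18482, 19803 and 16141 in SHR and 20081, 23006 and 22241 in WKY. The groups did not overlap, with SHR 2 and WKY 1 close together, and the log2 difference was -0.26 ± 0.12, with an interval from -0.55 to 0.02 (limma adjusted p = 0.395). Uqcrc2, a core subunit, also had every SHR array lower, at 12851, 12185 and 12957 against 15802, 14428 and 13075. WKY 3 was nearly level with SHR 3, and the log2 difference was -0.18 ± 0.12 (limma adjusted p = 0.551). Uqcrfs1, the Rieske iron-sulphur protein, was read by 3 probe sets that straddled no difference, at -0.03, 0.07 and 0.06. The brightest of them, M24542cds_g_at, read 41623, 39237 and 37006 in SHR and 35283, 38636 and 38118 in WKY. Soluble cytochrome c itself, Cycs, was read only by a probe set shared with the related loci Cycs-ps9 and Cycsl1, so its reading cannot be given to one gene. That probe set read 2922, 3570 and 3905 in SHR and 6247, 4293 and 4396 in WKY. Every SHR array was below every WKY array, WKY 1 stood highest, and the log2 difference was -0.49 ± 0.19 (unadjusted p = 0.0359, limma adjusted p = 0.311).

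Complex IV, cytochrome c oxidase, had the most tested probe sets of the member classes, 19 of 21. The median log2 difference was -0.04, 11 were lower and 8 higher in SHR, and the smallest adjusted p was 0.234. That was for Cox6c, a small membrane subunit, whose probe set M27467_at read 1185, 823 and 760 in SHR and 2261, 2034 and 1145 in WKY. SHR 1 exceeded WKY 3, so the groups overlapped. The means were 923 ± 229 and 1813 ± 590 (SD, n = 3 each), a log2 difference of -0.82 ± 0.28 (limma adjusted p = 0.234), the most negative among the tested member probe sets, which was -0.50 within the first session. The other Cox6c probe set, M27466_at, had the opposite sign, with 4085, 3416 and 2968 in SHR, 3125, 3420 and 1858 in WKY and a log2 difference of 0.33 ± 0.24 (limma adjusted p = 0.596). Its groups overlapped widely, and the 2 probe sets differed by 1.16 on the log2 scale, the widest disagreement within a member gene. The array also has a probe set for the processed copy Cox6c-ps1, which was too dim to be tested. The part of near-identical copies in the Cox6c readings was not tested.

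Cox7b, another small subunit, read 7365, 7416 and 7901 in SHR and 11825, 9216 and 9004 in WKY. All SHR arrays were lower, and WKY 1 stood apart from WKY 2 and WKY 3. The log2 difference was -0.39 ± 0.14, with an interval from -0.72 to -0.05 (unadjusted p = 0.0281, limma adjusted p = 0.280). Cox4i1, the regulatory subunit that binds ATP, had means on the higher side in SHR on all 3 of its probe sets, at 0.35, 0.08 and 0.03. J05425cds_s_at, the one with the difference of 0.35 ± 0.17, read 49579, 53770 and 47008 in SHR and 38222, 50803 and 30813 in WKY (limma adjusted p = 0.414). WKY 2 lay among the SHR arrays. The bright rc_AA818226_s_at read between 62935 and 72330 on all 6 arrays.

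Cox6a is present as a widely expressed form, Cox6a1, and a heart and skeletal muscle form, Cox6a2. The 3 probe sets of Cox6a1 gave log2 differences of -0.20, -0.01 and -0.04. On the one at -0.20, rc_AI104520_s_at, every SHR array was below every WKY array, with SHR 2 and WKY 3 nearly level (limma adjusted p = 0.572). For Cox6a2, X12554cds_s_at read 3144, 2816 and 2805 in SHR and 1664, 2688 and 2136 in WKY. Every SHR array was above every WKY array, by a narrow gap at WKY 2, and the log2 difference was 0.43 ± 0.20 (limma adjusted p = 0.389). A second Cox6a2 probe set, rc_AI171644_s_at, varied several-fold within a strain, at 1963, 399 and 535 in SHR and 692, 2016 and 337 in WKY. Its log2 difference of -0.05 ± 0.63 had the widest interval of the tested members and was 1.10 within the first session. Another, X72758mRNA_at, was too dim to be tested, at 35.2 to 76.3. Skeletal and heart muscle genes had 24 probe sets, 9 of them tested. The summed intensity of the 24 was 13723 to 15996 in SHR and 11990 to 13205 in WKY. The brightest of the 9, Myh1 rc_AA799594_at, read 5061, 4624 and 3920 in SHR and 3176, 1392 and 1561 in WKY, and it weighs heavily in these sums. Of the 9, 5 had a positive and 4 a negative log2 difference, with a median of 0.06. None of the 9 passed the test, and their part in the Cox6a2 reading was not tested.

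Among the other complex IV subunits, Cox8a, Cox5b and Cox6b1 had log2 differences between -0.19 and 0.07. On Cox8a M28255_s_at, the probe set at -0.19, every SHR array was below every WKY array. It read 51708, 47171 and 51914 against 52763, 63520 and 55964 (limma adjusted p = 0.472). Cox8a, the smallest subunit, was read by 4 probe sets at -0.19, -0.11, -0.09 and 0.02, Cox5b by 2 at 0.07 and -0.16, and Cox6b1 by 2 at -0.14 and 0.04. The Cox5a probe set of its own was below the intensity filter, at 402, 501 and 168 in SHR and 541, 613 and 804 in WKY. All SHR arrays were lower there, and without the filter the log2 difference was -0.67 ± 0.32 (limma adjusted p = 0.507). A Cox5a probe set shared with a related locus gave -0.30 (limma adjusted p = 0.586). The shared Cox7a2 probe set gave 0.09 (limma adjusted p = 0.861).

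Complex V, the ATP synthase, was measured by 16 tested probe sets of 17, with 8 lower and 8 higher in SHR and a median of -0.03. In the head, Atp5f1b, the catalytic beta subunit, read 57000, 54879 and 64771 in SHR and 61467, 59407 and 65420 in WKY. SHR 3 lay among the WKY arrays while SHR 1 and SHR 2 were below them, and the log2 difference was -0.08 ± 0.10 (limma adjusted p = 0.780). Atp5f1c, the central gamma shaft, read 19935, 19087 and 19571 against 19464, 13287 and 16621. The 3 SHR arrays lay close together, WKY 2 was lowest, and the log2 difference was 0.26 ± 0.15 (limma adjusted p = 0.483). Atp5f1a, the alpha subunit, gave -0.07, and both probe sets of the delta subunit Atp5f1d gave 0.01. The epsilon subunit Atp5f1e gave 0.10 and 0.02.

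In the stalk and membrane part, Atp5po, the oligomycin sensitivity protein that ties the head to the stator, read 24471, 25226 and 27752 in SHR and 22222, 20668 and 22507 in WKY on probe set D13127_g_at. Every SHR array was higher, with a log2 difference of 0.24 ± 0.11 (unadjusted p = 0.0533, limma adjusted p = 0.369). The second probe set of the same sequence, D13127_at, gave 0.02 (limma adjusted p = 0.973). The stator subunits Atp5pb, Atp5pd and Atp5pf lay between -0.17 and 0.16. The shared probe sets for the c-ring genes Atp5mc1 and Atp5mc2 gave 0.09 and 0.08.

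**Figure D3:**
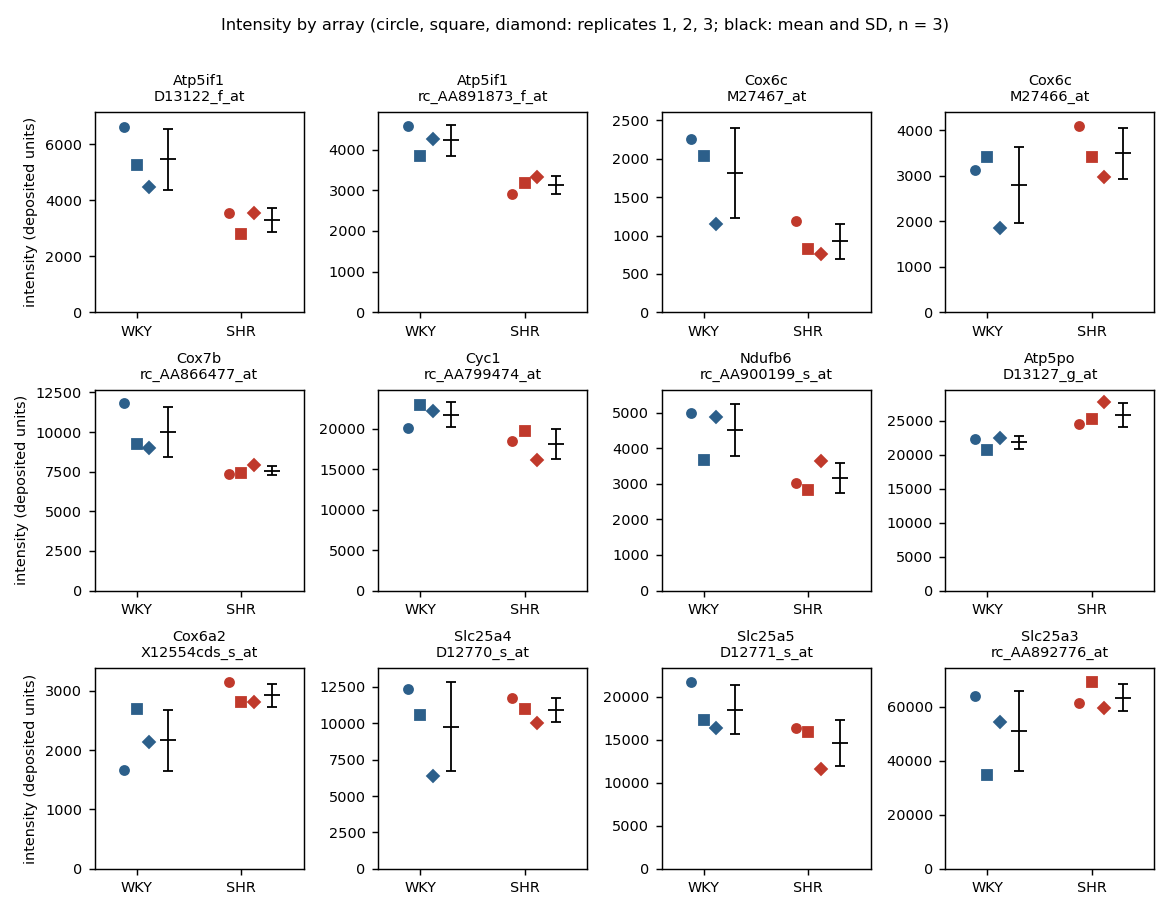
Intensity by array (y axis, from 0, deposited intensity units) in WKY and SHR for the member probe sets described most closely, with circle, square and diamond for replicates 1, 2 and 3 and black marks for the mean and SD (n = 3). For Atp5if1 and Cox7b the SHR arrays lie below the WKY arrays, for Cox6c M27467_at one SHR array lies above one WKY array, and none of these differences passed the adjusted threshold.

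Atp5if1 encodes the inhibitor that binds the ATP synthase and blocks ATP hydrolysis when the proton gradient fails, and it gave the smallest p of all members. Probe set D13122_f_at read 3539, 2799 and 3530.4 in SHR and 6627, 5259 and 4483 in WKY. The groups were well apart, with the highest SHR array below the lowest WKY array and WKY 1 the highest of all. The means were 3289 ± 425 and 5456 ± 1086 (SD, n = 3 each). The log2 difference was -0.69 ± 0.19, which is 1.61-fold lower in SHR on the log2(intensity + 181.5) scale, with an interval from -1.12 to -0.26 (unadjusted p = 0.0060, limma adjusted p = 0.132). It was -0.58 within the first session.

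A second Atp5if1 probe set, rc_AA891873_f_at, read 2898, 3187 and 3324 in SHR and 4589, 3833 and 4267 in WKY. The groups again did not overlap, and the log2 difference was -0.41 ± 0.15 (unadjusted p = 0.0235, limma adjusted p = 0.261). Probe set M35300_f_at read 796, 848 and 482 against 893, 695 and 934, which overlapped (-0.22 ± 0.26, limma adjusted p = 0.756). Probe set D13122_i_at was below the intensity filter, at 137, 46.9 and 42.4 in SHR and 545, 212 and 492 in WKY. All 3 SHR arrays were lower there too, and without the filter its log2 difference was -1.19 ± 0.29 (limma adjusted p = 0.142). The 4 probe sets thus had a lower mean in SHR, and none passed the test. They are not replicates of one another: all 4 read the same RNA on the same arrays, D13122_f_at and D13122_i_at come from one sequence, and the letters f and i mark designs that share probes with similar sequences or have few unique ones.

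The carriers of the inner membrane pointed different ways. Slc25a3, the phosphate carrier, read 61344, 68984 and 59513 in SHR and 63738, 34725 and 54452 in WKY. WKY 2 was far below the other 5 arrays, and the log2 difference of 0.35 ± 0.21 (limma adjusted p = 0.494) was 0.10 without that array. Slc25a4, the adenine nucleotide translocase typical of heart and muscle, read 11717, 10976 and 10035 against 12345, 10534 and 6375. The groups overlapped at the top, WKY 3 was lowest, and the log2 difference of 0.21 ± 0.23 (limma adjusted p = 0.741) became -0.07 without WKY 3. Slc25a5, the translocase of proliferating and many other cells, read 16310, 15946 and 11593 against 21698, 17316 and 16389. The groups did not overlap, SHR being lower, though SHR 1 and WKY 3 nearly met, and the log2 difference was -0.34 ± 0.17, with an interval from -0.74 to 0.06 (limma adjusted p = 0.430). The porin Vdac1 gave -0.03 and -0.07 on its 2 probe sets, and AF048828_g_at read 9120.4, 9143 and 8336 in SHR and 11275, 9897 and 7143 in WKY, with the SHR arrays inside the WKY range.

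Of the 16 member genes with several tested probe sets, 6 had probe sets of both signs: Uqcrfs1, Cox5b, Cox6a2, Cox6b1, Cox6c and Cox8a. In 5 of these the differences were near 0 on at least one probe set, and Cox6c was the exception, with sizable values of opposite sign.

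The WKY arrays varied more among themselves than the SHR arrays did. Over the members the median coefficient of variation was 10.2% in SHR and 16.8% in WKY, and it was larger in WKY for 41 of 55 members (74.5%), against 55.0% of all tested probe sets and 58.8% of the 981 of similar brightness. WKY 1 held the highest of the 6 values for 22 of 55 members (40.0%), against 17.5% of all tested probe sets. The complexes did not follow one array together. In complex V, 15 of 16 probe sets were above their own mean on WKY 1, with a median deviation of 0.22 on the log2 scale and of -0.11 on WKY 2, whereas in complex IV 16 of 19 were above it on WKY 2, with a median of 0.16. Leaving out single arrays moved the balance of signs: 25 members were lower and 30 higher without WKY 1 (median 0.01), and 41 lower and 14 higher without WKY 3 (median -0.09). Adipocyte marker genes had 16 probe sets, 14 of them tested. The summed intensity of the 16 was 133312 on WKY 1, against 89695 on WKY 2, 69882 on WKY 3 and 64498 to 76755 in SHR. Summed intensity of 15 kidney marker probe sets, 8 of them tested, was also highest on WKY 1, at 19072, against 7559 to 10649 on the other 5 arrays. The part of either in the members' values was not tested.

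**Figure D4:**
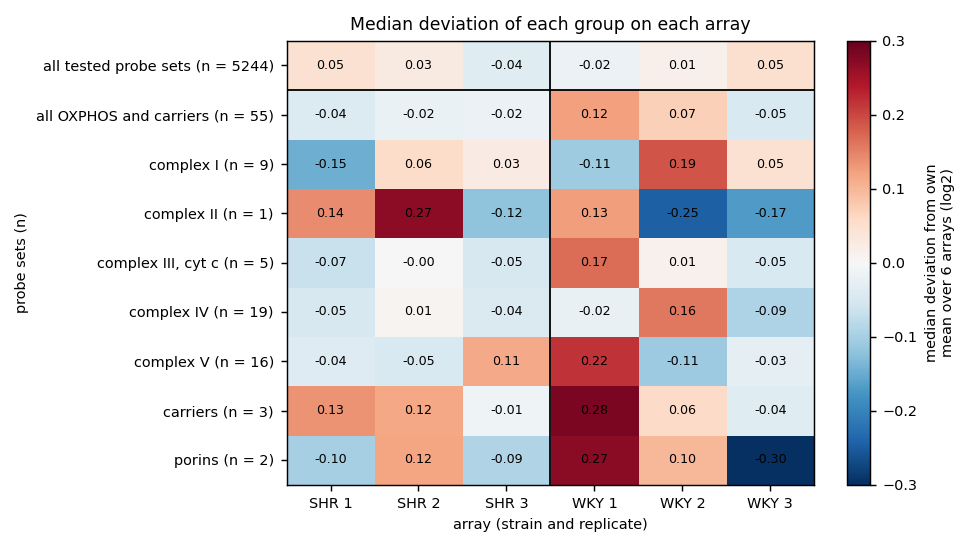
Median deviation of the member probe sets from their own mean over 6 arrays (log2 scale, red above and blue below) on each array (columns), by complex or carrier class and over all tested probe sets (rows), as a colour map with each value printed in its cell. Complex V has its highest median on WKY 1 (0.22) and complex IV on WKY 2 (0.16), while the median over all tested probe sets stays between -0.04 and 0.05.

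Other genes of mitochondrial energy metabolism were taken from 6 further lists. They gave 83 tested probe sets for 52 genes, with a median log2 difference of 0.02, and none passed the test. Of the 83, 7 had an unadjusted p under 0.05 (4 higher, 3 lower), a level that 13.9% of all tested probe sets reached. The 34 probe sets of other respiratory chain and ATP synthase genes had a median of 0.04, and their smallest p was for the complex I subunit Ndufb8. Its probe set rc_AA851403_g_at averaged 10724 ± 862 in SHR and 14999 ± 998 in WKY (SD, n = 3 each), a log2 difference of -0.48 ± 0.12 (limma adjusted p = 0.110). Its other tested probe sets gave -0.41 (rc_AA964320_at) and 0.22 (rc_AA851403_at). The medians were 0.03 for 4 assembly factor probe sets, 0.06 for 12 of other carriers, 0.04 for 22 of import and structure, -0.08 for 6 of ATP handling kinases and -0.30 for 5 of biogenesis regulators. The 1 probe set of smallest p in each of these lists was of Ndufaf3, Slc25a11, Hspa9, Ak3 and Ppard. Slc25a11, the oxoglutarate carrier, averaged 7503 ± 580 in SHR and 5842 ± 576 in WKY (SD, n = 3 each), on probe set U84727_at, a log2 difference of 0.35 ± 0.14 (limma adjusted p = 0.306), and its second probe set, rc_AA859975_at, gave -0.08. Hspa9, the chaperone that pulls proteins into the matrix, read 1277, 967 and 1132 in SHR and 378, 855 and 102 in WKY on probe set rc_AA944973_at. All SHR arrays were higher, the WKY arrays were widely spread, and the log2 difference of 1.25 ± 0.44 had a limma adjusted p of 0.258. The other Hspa9 probe sets gave 0.34 (S75280_s_at) and 0.03 (S78556_at), so the value of 1.25 holds for that probe set and not for the gene. Ndufaf3, a complex I assembly factor, gave 0.30 ± 0.16 on U95161_s_at (limma adjusted p = 0.448) and -0.38 and -0.01 on its other probe sets. Ppard, a nuclear receptor of fatty acid metabolism, gave -0.30 ± 0.15 on rc_AI230294_at (limma adjusted p = 0.414) and -0.15 and -0.39 on the others. Ak3, a nucleotide kinase of the mitochondrial matrix, came nearest to the threshold. It read 8483, 8005 and 7133 in SHR and 5082, 4294 and 5013 in WKY. All SHR arrays were higher, and the log2 difference was 0.69 ± 0.14 (limma adjusted p = 0.0553). It passed in 3 of 19 fits, with adjusted p of 0.0453 after quantile normalization, 0.0400 after scaling to the median and 0.0471 with a stricter intensity filter.

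Some cell type markers differed between the strains. Of 19 tested fibroblast and capsule matrix probe sets 7 were called lower in SHR (of Col1a1, Col1a2, Col3a1, Dcn and Fn1), of 9 leukocyte probe sets 3, all of the antigen presentation gene Cd74, of 14 adipocyte probe sets 1 (Cfd) and of 10 medulla probe sets 1 (Dbh, the noradrenaline-forming enzyme, with a log2 difference of -1.29). None of 11 cortex, 9 muscle, 8 kidney or 5 red cell probe sets was called. Intensities were summed over all probe sets of a list, tested or not. Summed matrix intensity was 93986 to 113018 in SHR and 148568 to 183638 in WKY, and summed cortex intensity was 447153 to 627303 against 483712 to 682161. The sums were 43203 to 54379 against 57149.8 to 65582 for medulla and 19094 to 23286 against 28494 to 55267 for leukocytes. They were 58447 to 60557 against 69900 to 141257 for red cells and 7559 to 10649 against 9467 to 19072 for kidney. Bright probe sets weigh most in such sums. The 10 tested medulla probe sets had log2 differences from -1.29 to 0.91, 8 negative and 2 positive. Values were -0.57 for Pnmt, the brightest, -0.02 for Th, -0.08 for Chgb, 0.14 for Ddc and 0.91 for Slc18a2. The tested probe sets of the other leukocyte genes Cd14, Lyz2, Cd4 and Ptprc were not called, with log2 differences from -0.43 to 0.05. No probe set had a value of 0 on any array. The part of cell composition in the members' values was not tested.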

How the data were processed

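Intensity values for 8799 probe sets on each of 6 arrays were used as deposited by the authors, scaled so that the mean without the top and bottom 2% was 2504 on every array, as the values show. No source used here names the expression algorithm. The authors' settings files, with other instrument entries, gave the hybridization sessions (starts over 60 minutes apart) and 4 fluidics modules. After 59 control probe sets were left out, 7006 probe sets had 1 gene symbol, 308 several and 1426 none in the platform annotation. Only those with 1 symbol were counted as members.

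A pseudocount of 181.5, equal to the 20th percentile of positive values, was added before log2, which understates differences of dim probe sets. Probe sets with a mean above the 40th percentile (5244) were tested with limma 3.58.1 (lmFit, eBayes with intensity trend) in R 4.3.3, two-sided, with 4 residual degrees of freedom and Benjamini-Hochberg adjustment. Alternatives changed scaling, pseudocount, filter, variance model, blocks and single arrays.

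Genes named were, in each class, the 4 probe sets of smallest p, the brightest, and those of genes whose probe sets disagreed in sign or by over 0.5; other pathway genes were named by smallest p in a list. Further members and shared probe sets were added to account for every gene. The members and lists were chosen with earlier results of these data known.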

Additional observations from a re-analysis of the deposited data

How the results depend on the processing

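Over the 19 fits, the count of called members was 0 in both directions, with a smallest adjusted p between 0.0997 (Cox6c M27467_at without WKY 3) and 0.590. Atp5if1 D13122_f_at kept a negative log2 difference, from -0.82 to -0.54, with limma adjusted p from 0.105 to 0.669. The median over members was -0.04 in the main fit and ran from -0.09 without WKY 3 to 0.01 without WKY 1. In each fit it moved by less than 0.062, the pooled SD of the array medians within a strain. That SD is larger than the median itself, so this comparison cannot show that its sign is stable. The number called on the whole array, 102, was 60 without the intensity trend, 20 with session as a covariate, 1 in the first session alone (an alternative chosen after seeing the data), and 36 to 59 when 1 array was left out. The replicate block gave 53; correlations of deviations between arrays with the same number were 0.0009, 0.010 and 0.071, so the numbers do not pair the arrays. Without session 2, or with session as a covariate, the sign turned for Uqcrfs1 M24542cds_at (0.072) and rc_AI103911_at (-0.036), Cox6a2 rc_AI171644_s_at (1.10) and Cox8a rc_AI102505_at (-0.23). Quantile normalization turned Cox6b1 rc_AI104035_s_at (-0.0024), and median scaling turned Uqcrfs1 M24542cds_at (0.0044) and Vdac1 AF048828_at (0.0061). With single arrays left out, ranges crossed 0 for Uqcrfs1 M24542cds_at (-0.086 to 0.042) and rc_AI103911_at (-0.089 to 0.27), Cox5b D10952_i_at (-0.016 to 0.14), Cox6a2 rc_AI171644_s_at (-0.63 to 0.52), Cox6b1 rc_AA946040_at (-0.25 to 0.035) and rc_AI104035_s_at (-0.11 to 0.17), the shared Cox7a2 probe set (-0.022 to 0.29), Cox8a rc_AI102505_at (-0.071 to 0.15) and rc_AI102505_g_at (-0.24 to 0.046), Slc25a4 (-0.066 to 0.40), and Vdac1 AF048828_at (-0.17 to 0.078) and AF048828_g_at (-0.25 to 0.073). The cause was not tested. With 3 arrays a strain and 1 SHR array in the session that holds both strains, session and strain are separated only by that array.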
